A study of Mus musculus with 8 samples.

Results

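The chromatin regions described here separated Nfat5 knockout (KO) from wild-type (WT) macrophages in every library of the study. ATAC-seq, in which a transposase cuts accessible DNA and tags it for sequencing, was applied to bone marrow-derived macrophages, and the authors called peaks in each of 8 libraries separately. Merging the 8 lists on the main chromosomes gave 87260 regions. Of these, 128 were called in all 4 KO lists and in no WT list (KO-only, 0.147% of all regions), and 202 were called in all 4 WT lists and in no KO list (WT-only, 0.231%). These 330 regions were chosen by the calls themselves, so their number and their direction are a description and carry no test.

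The 4 groups had 2 libraries each: KO macrophages treated with lipopolysaccharide (LPS, from E. coli) at 0.3 ng/ml for 2 h, untreated KO macrophages, WT macrophages treated with the same LPS dose and time, and untreated WT macrophages. All were grown from bone marrow for 7 days in 25% medium conditioned by L929 fibroblasts, a cell line whose M-CSF drives the growth of macrophages. The part of Nfat5 that was removed, and the strain, age and sex of the mice, were not stated in the labels or lists. The labels do not say whether the 2 libraries of a group came from separate mice, so the spread between them may be technical. Each code in the labels is shared by an LPS-treated and an untreated library, and whether it marks one animal is not stated. The lists held 54911 and 54027 peaks with LPS and 56346 and 59811 untreated in KO cells, against 57691 and 55506 with LPS and 60117 and 59218 untreated in WT cells. They carry positions only, so read depth is unknown, and absence from a list means only that no peak was called there. In pooled cells, fewer cells with an accessible site and less accessibility per cell cannot be told apart. All 8 macrophage markers examined, among them Csf1r, Spi1 and Lyz2, had a region called in all 8 lists, whereas Cd3e, Cd3g and Cd8a of T cells, Cd79a and Pax5 of B cells, Elane of neutrophils, Col1a2 and Dcn of fibroblasts and Cpa3 and Mcpt8 of mast cells or basophils had no region.

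NFAT5, also called TonEBP, is a transcription factor of the Rel family. It is best known for switching on genes that protect cells from hypertonic stress: transporters and enzymes that load the cell with organic osmolytes such as betaine, myo-inositol, taurine and sorbitol. In macrophages it also takes part in the response to Toll-like receptor ligands such as LPS. Its binding sites share a short core with those of the other NFAT proteins, written here as TGGAAA.

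Among 135 regions of the osmotic list genes, none was KO-only and 1, at Slc6a12, was WT-only (0.741%). Over all regions the shares were 0.147% KO-only and 0.231% WT-only. Slc6a12 encodes the betaine transporter BGT1, a classical NFAT5 target. Promoter sequence from RefSeq (build GRCm38.p6) is shown for the genes whose start sites bear on the calls. The first Slc6a12 sequence lies upstream of the earliest annotated start and is the one of the 5 annotated Slc6a12 windows that holds the core. The second lies upstream of the last start and is covered in large part by the WT-only region. Ccdc65 is shown because its WT-only region overlaps a promoter window whose upstream sequence holds the core, although the core itself precedes the called bases, and Adamtsl4 because it has the sole promoter under a KO-only region. Each sequence runs 5′ to 3′ over the 250 bases before the start, and capitals mark TGGAAA or its reverse complement TTTCCA.
Slc6a12, first start (chr6:121342324-121342573, + strand): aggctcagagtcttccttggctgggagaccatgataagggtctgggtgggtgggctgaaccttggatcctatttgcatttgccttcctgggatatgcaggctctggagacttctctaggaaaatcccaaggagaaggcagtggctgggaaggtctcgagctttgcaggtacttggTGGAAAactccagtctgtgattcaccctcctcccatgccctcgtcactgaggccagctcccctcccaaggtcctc
Slc6a12, last start (chr6:121343138-121343387, + strand): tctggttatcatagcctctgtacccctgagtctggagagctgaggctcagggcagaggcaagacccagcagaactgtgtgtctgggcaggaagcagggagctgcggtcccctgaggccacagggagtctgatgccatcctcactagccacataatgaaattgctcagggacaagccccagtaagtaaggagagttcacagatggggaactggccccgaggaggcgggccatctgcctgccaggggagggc
Ccdc65 (chr15:98707944-98708193, + strand): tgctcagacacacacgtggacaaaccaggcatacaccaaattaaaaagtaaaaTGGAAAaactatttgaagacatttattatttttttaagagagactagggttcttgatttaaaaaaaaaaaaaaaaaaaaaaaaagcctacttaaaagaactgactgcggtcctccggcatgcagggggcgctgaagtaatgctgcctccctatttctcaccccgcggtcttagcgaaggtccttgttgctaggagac
Adamtsl4 (chr3:95687918-95688167, - strand): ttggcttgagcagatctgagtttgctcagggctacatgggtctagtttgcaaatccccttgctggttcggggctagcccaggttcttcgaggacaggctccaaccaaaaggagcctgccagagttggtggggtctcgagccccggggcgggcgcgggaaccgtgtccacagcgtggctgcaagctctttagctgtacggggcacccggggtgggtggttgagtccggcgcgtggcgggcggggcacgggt

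The WT-only region at Slc6a12 spanned chromosome 6, 121343196 to 121343435, over the last annotated start sites of the gene. No KO library called it, and its peaks were 232 and 225 bases wide in the WT LPS libraries and 210 and 239 bases in the untreated WT libraries. It overlapped 2 of the 5 promoter windows, each taken as 250 bases before to 50 after a start, and the core-bearing window at 121342324 to 121342623 lay outside it. The region called next to it on the upstream side, at 121341624 to 121342172, was called in all 8 libraries. There the peaks were 335 and 506 bases wide with LPS and 438 and 350 untreated in KO cells, against 523 and 549 with LPS and 478 and 508 untreated in WT cells, so the widths of the genotypes overlapped. A further region at 121338180 to 121338789, nearest to Slc6a13, which encodes a GABA transporter, was also called everywhere. Its peaks were 255 and 269 bases with LPS and 275 and 252 untreated in KO cells, against 577 and 572 with LPS and 544 and 510 untreated in WT cells. All 4 KO widths lay below all 4 WT widths at that region, which was looked at because of its neighbour and carries no test. Inside Slc6a12, a region at 121356309 to 121356833 was called in no KO library and 3 WT libraries, and one beyond the gene at 121366373 to 121366812 was called in 2 KO and 4 WT libraries. The Slc6a12 region was among the narrower members: when every list was cut to the length of the shortest one by peak width, it was no longer WT-only.

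The other osmotic genes had no region called in all libraries of one genotype and none of the other. The 21 genes of the list had 135 regions, of which 63 were called in all 8 libraries and 1 (0.741%) was WT-only, against 0.231% of all regions. A single region does not set the list apart from regions at large. The list was written with earlier results of these data known and is no independent evidence. Regions that missed the rule by 1 library were found in both directions. Over all 87260 regions, 335 and 359 did so on the KO side and 467 and 629 on the WT side. On the KO side, 2 regions assigned to Vegfc, a lymphatic growth factor gene, were called in 4 KO libraries and 1 WT library. They lay 86.6 and 88.6 kb outside the gene. Inside Nfat5 itself, 1 region was called in 3 KO and 0 WT libraries. On the WT side, Slc5a3, the myo-inositol transporter gene, had a region at chromosome 16, 92019153 to 92019751, with a width of 215 bases in 1 untreated KO library, against 414 and 238 bases with LPS and 564 and 485 untreated in WT cells. Regions of Akr1b3 (aldose reductase, which makes sorbitol) and Sgk1 (a salt-responsive kinase) were called in 0 KO and 3 WT libraries. The Slc5a3, Akr1b3 and Sgk1 regions lay 38.6, 25.9 and 34.8 kb outside their genes. Across 19 gene lists, which ranged from LPS, interferon and MHC class II genes to housekeeping genes and markers of cells other than macrophages, 323 genes with an entry in the gene table had 1878 regions. None of these was KO-only and 2 were WT-only, 0.990% of the WT-only regions, while the lists held 2.15% of all regions. The second was a region near Gata2, a transcription factor gene of the mast cell list, at chromosome 6, 88189596 to 88189896, with widths of 273 and 232 bases with LPS and 204 and 288 untreated in WT cells.

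**Figure D1:**
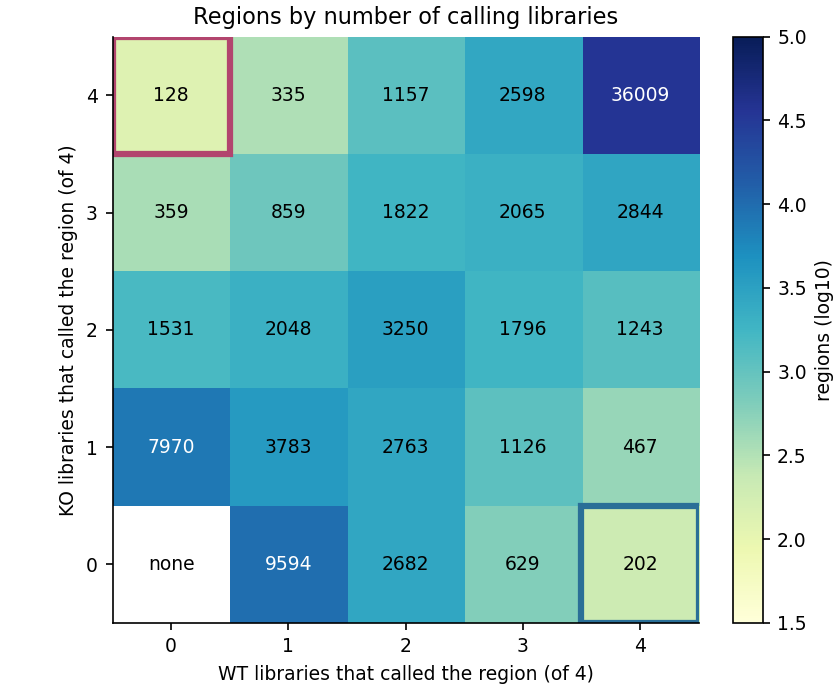
Number of regions by how many KO libraries (vertical axis) and how many WT libraries (horizontal axis) called them, with the colour on a log10 scale and the 2 cells described here outlined. The outlined cells hold 128 and 202 regions, next to 335 and 359 regions on the KO side and 467 and 629 on the WT side that missed the rule by 1 library.

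The 330 regions stood at the corners of the grid of calls, where few regions lay. Calls by 4 KO libraries and 1 WT library were made at 335 regions and calls by 3 KO libraries and none of the WT at 359, against 467 called by 1 KO and 4 WT libraries and 629 called by 3 WT libraries alone. All 8 libraries called 36009 regions. Median region widths were close to those with 1 opposite call added, and larger than those with 1 call missing. The median was 425 bases for KO-only regions, against 438 bases with 1 WT call added and 343 bases with 1 KO call missing. For WT-only regions the median was 409 bases, against 430 bases with 1 KO call added and 338 bases with 1 WT call missing. Regions called in all 8 libraries had a median of 741 bases. A region spans the peaks of every library that calls it, so these widths also depend on the number of calling libraries.

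Within 1 treatment the same rule with 2 libraries against 2 gave many more regions, and few of them met it under both treatments. With LPS, 1771 regions (2.03%) were KO-only and 2763 (3.17%) were WT-only. Without treatment the counts were 1393 (1.6%) and 1944 (2.23%). The 128 regions that were KO-only under both treatments were 7.23% of those with LPS and 9.19% of those without. The 202 WT-only regions were 7.31% and 10.4% of theirs. A switch of direction was rarer: 21 regions were KO-only with LPS and WT-only without it, and 27 were WT-only with LPS and KO-only without it.

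Peaks at the member regions were narrow in every library that called them. At KO-only regions the median peak width was 293 and 259 bases in LPS-treated KO cells and 310 and 302 bases in untreated KO cells, where the medians of the whole lists were 410, 403, 443 and 422 bases. At WT-only regions it was 270.5 and 254 bases in the WT LPS libraries and 281 and 291 bases in the untreated WT libraries, against list medians of 402, 415, 437 and 434 bases. Every one of these 8 medians lay below that of its own list. A peak under 200 bases in at least 1 library was present at 66 KO-only regions (51.6%) and 105 WT-only regions (52.0%), and 12 KO-only and 8 WT-only regions had peaks over 400 bases in all 4 libraries. A single peak in each calling library made up 122 of the 128 KO-only and 199 of the 202 WT-only regions. These counts are not given for other regions. Other regions called in exactly 4 libraries had a median region width of 391 bases, against 425 for KO-only and 409 for WT-only regions. Narrowness was thus no trait of the members alone.

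Treatment, which the choice of regions did not use, went with lower median peak widths in both directions, but the groups of 2 allow no call. The library medians averaged 276 ± 24.0 bases with LPS and 306 ± 5.66 bases untreated at KO-only regions (SD, n = 2 each), a difference of -30 bases, with an exact two-sided permutation p of 0.333. At WT-only regions they averaged 262 ± 11.7 bases with LPS and 286 ± 7.07 bases untreated (SD, n = 2 each), a difference of -23.75 bases, exact permutation p = 0.333. Groups of 2 cannot give a p below 0.333. At 50% coverage the difference was -28.5 bases for KO-only and -3 bases for WT-only regions, with exact permutation p of 0.333 and 0.667. The medians of the whole lists differed by -26 bases in KO and -27 bases in WT cells. Region by region, both LPS peaks were wider than both untreated peaks at 11 KO-only and 26 WT-only regions, and the reverse held at 27 KO-only and 58 WT-only regions. The same counts over all regions are not given here. With the whole lists also lower under LPS, the balance is not read as a trait of the members.

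**Figure D2:**
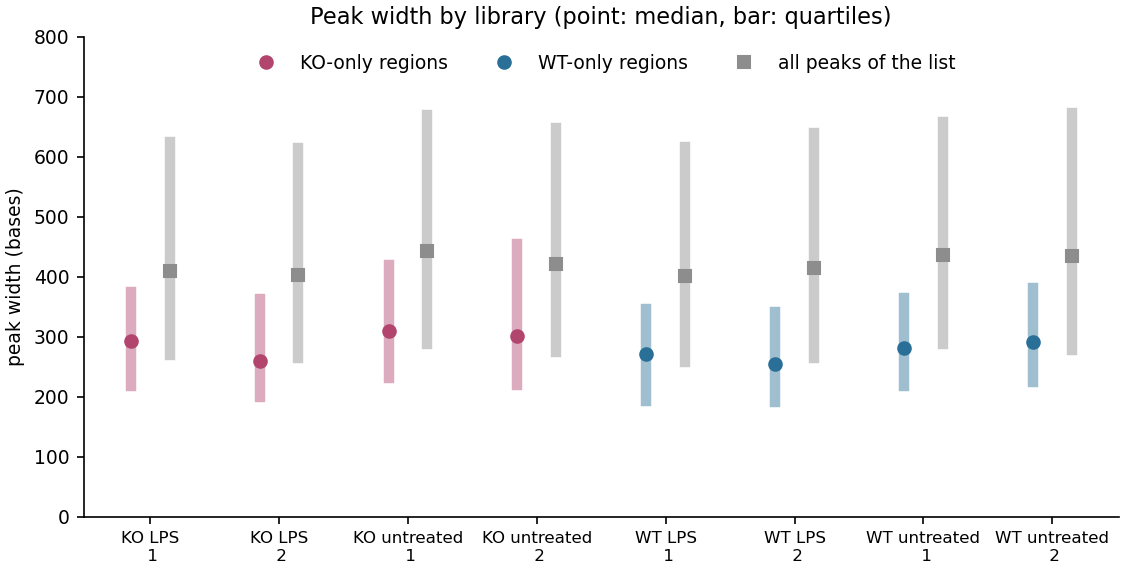
Peak width in bases for each library, as the median (point) and quartiles (bar), for KO-only regions, WT-only regions and all peaks of the library's list. Member medians lie between 254 and 310 bases, below list medians of 402 to 443 bases in every library.

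KO-only regions lay farther from genes than WT-only regions. A protein-coding gene lay more than 100 kb away from 31 KO-only regions (24.2%) but from 7 WT-only regions (3.47%), beside 10.04% of all regions and 10.5% of the other regions called in exactly 4 libraries. The share inside a gene and more than 1 kb from its ends was 50.8% (65 regions) for KO-only and 51.5% (104) for WT-only regions, against 43.6% of all regions. Outside genes but within 100 kb lay 25 KO-only (19.5%) and 70 WT-only regions (34.7%), against 30.4% of all regions. Near gene ends, at a distance of up to 1 kb, lay 7 KO-only (5.47%) and 21 WT-only regions (10.4%), against 16.0% of all regions and 7.72% of the others called in exactly 4 libraries. The median distance to the nearest gene end was 42.0 kb for KO-only regions and 12.9 kb for WT-only regions, against 16.6 kb for all regions. No test was made over the regions, because neighbouring regions are not independent.

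**Figure D3:**
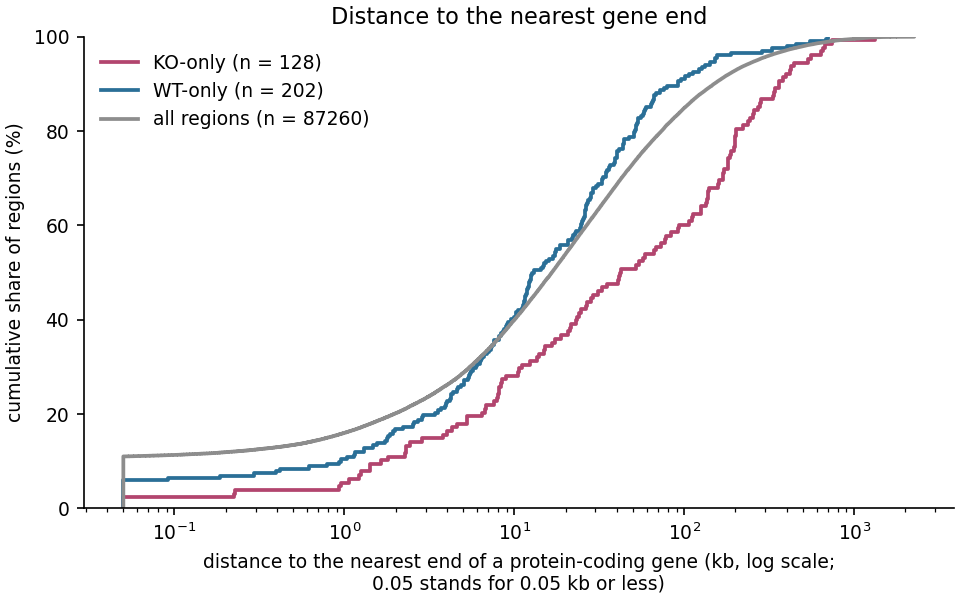
Cumulative share of regions (percent) by distance to the nearest end of a protein-coding gene in kb on a log axis, for KO-only regions, WT-only regions and all regions. The KO-only curve runs to the right of the others, with medians of 42.0 kb for KO-only regions, 12.9 kb for WT-only regions and 16.6 kb for all regions.

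The ends of the assigned genes differed in the same way. For regions more than 1 kb from a gene end, the gene had a region called in all 8 libraries within 1 kb of one of its ends in 30 of 90 cases (33.3%) for KO-only and in 100 of 174 (57.5%) for WT-only regions, against 61.5% for all regions. No library called anything at either end of the gene for 54 KO-only (60%) and 48 WT-only regions (27.6%), against 26.0% of all regions. The 97 KO-only regions within 100 kb of a gene belonged to 86 genes and the 195 WT-only regions to 191 genes. Clmp and Zfhx3 had regions in both directions.

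Of 11 genes with several members, 6 had KO-only and 3 WT-only regions alone, and the other regions of those 6 were also called more often in KO libraries. Ryr2, the ryanodine receptor that releases calcium in heart muscle, had 3 KO-only regions on chromosome 13, and none of its 8 regions was called in any WT library. The widest, at 12027526 to 12028590, measured 917 and 848 bases with LPS and 897 and 1065 bases untreated in KO cells, at a high rank within each list. The region at 11904775 to 11905749 measured 731 and 948 bases with LPS and 947 and 629 bases untreated, and the region at 12033742 to 12034374 had narrower peaks of 335 and 572 bases with LPS and 474 and 243 bases untreated. The 5 other Ryr2 regions were called 8 times in KO and 0 times in WT libraries.

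Sgcd, which encodes delta-sarcoglycan of the dystrophin complex in muscle, had 4 KO-only regions on chromosome 11. At 47025152 to 47025573 the peaks were 343 and 349 bases wide with LPS and 295 and 381 bases untreated in KO cells. At 47171050 to 47171658 they were more uneven, with 599 and 274 bases with LPS and 464 and 453 bases untreated. Of the 13 other Sgcd regions, 11 were called by more KO than WT libraries and 0 by more WT libraries. Cdh10, a cadherin gene, had 3 KO-only regions, and 7 of its 10 others leaned to KO and 0 to WT. Lingo2, which encodes a leucine-rich repeat membrane protein of neurons, had 3 and a balance of 8 against 1 among 12 others. Pcdh9 (a protocadherin) and Cntnap2 (a neurexin-family adhesion protein) had 2 each, with balances of 6 against 0 among 8 others and 21 against 9 among 44 others. WT-only regions came in pairs at Tmcc2, with 0 regions leaning to KO and 2 to WT among 4 others, at Slco4a1, an organic anion transporter gene, with 0 and 4 among 7 others, and at Ank3 (ankyrin-G), with 3 and 4 among 16 others. These genes were picked for holding members, so the lean of their other regions is a description.

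Runs of at least 3 members of 1 direction, with neighbours no more than 1 Mb apart, numbered 6 for KO-only and 2 for WT-only regions. The longest KO-only run had 6 members over 1428.56 kb of chromosome 11 (45959778 to 47388337). The first was near Thg1l, a tRNA-modifying enzyme gene, and 4 were at or near Sgcd. The Thg1l region, at 45959778 to 45960269, measured 449 and 430 bases with LPS and 458 and 171 bases untreated in KO cells, with 1 untreated library narrower than the other 3, and it was no longer KO-only with equal list lengths or at 50% coverage. Between the members lay 72 other regions, of which 31 were called in all 8 libraries, 18 by more KO and 16 by more WT libraries. The other KO-only runs included those at Ryr2, at Lingo2 and at or near Cdh10. Another lay on chromosome 5 (11589333 to 12161489), with no gene within 100 kb of 2 of its 3 members. The last lay among odorant receptor genes on chromosome 2. In the chromosome 5 run, 12 of 14 other regions were called by more KO libraries and 1 by more WT libraries.

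The odorant receptor run spanned 189.703 kb (88984221 to 89173923) with members near Olfr1214, Olfr1223 and Olfr1225. The region near Olfr1223 had peaks of 1021 and 716 bases with LPS and 693 and 856 bases untreated in KO cells. The one near Olfr1214 had 457 and 524 bases with LPS and 551 and 466 bases untreated, and the one near Olfr1225 had 202 and 270 bases with LPS and 232 and 300 bases untreated. Odorant receptor genes are used in olfactory neurons, and these regions lay between 2.31 and 8.14 kb outside them. The genes are close copies of one another, and how the authors treated reads that match several places was not stated.

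The longer WT-only run held 5 members over 1451.43 kb of chromosome 1 (132390379 to 133841808). Those inside genes lay in Tmcc2 and Nfasc (neurofascin, an axonal adhesion protein). The others lay 2.58 kb outside Ren1 (renin) and 40.4 kb outside Atp2b4 (a calcium pump of the plasma membrane). The 2 Tmcc2 regions overlapped 2 of its annotated promoter windows. At 132390379 to 132390886 the peaks were 397 and 431 bases wide with LPS and 499 and 498 bases untreated in WT cells, and at 132391525 to 132391942 they were 219 and 366 bases with LPS and 225 and 202 bases untreated. Among the 48 other regions of this run, 8 were called by more KO and 14 by more WT libraries. The second run, on chromosome 1 from 160149268 to 160867344, had members inside Tnn (an extracellular tenascin) and Rabgap1l. Its last member lay 39.1 kb outside Rc3h1 (Roquin-1, which promotes decay of inflammatory mRNAs).

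**Figure D4:**
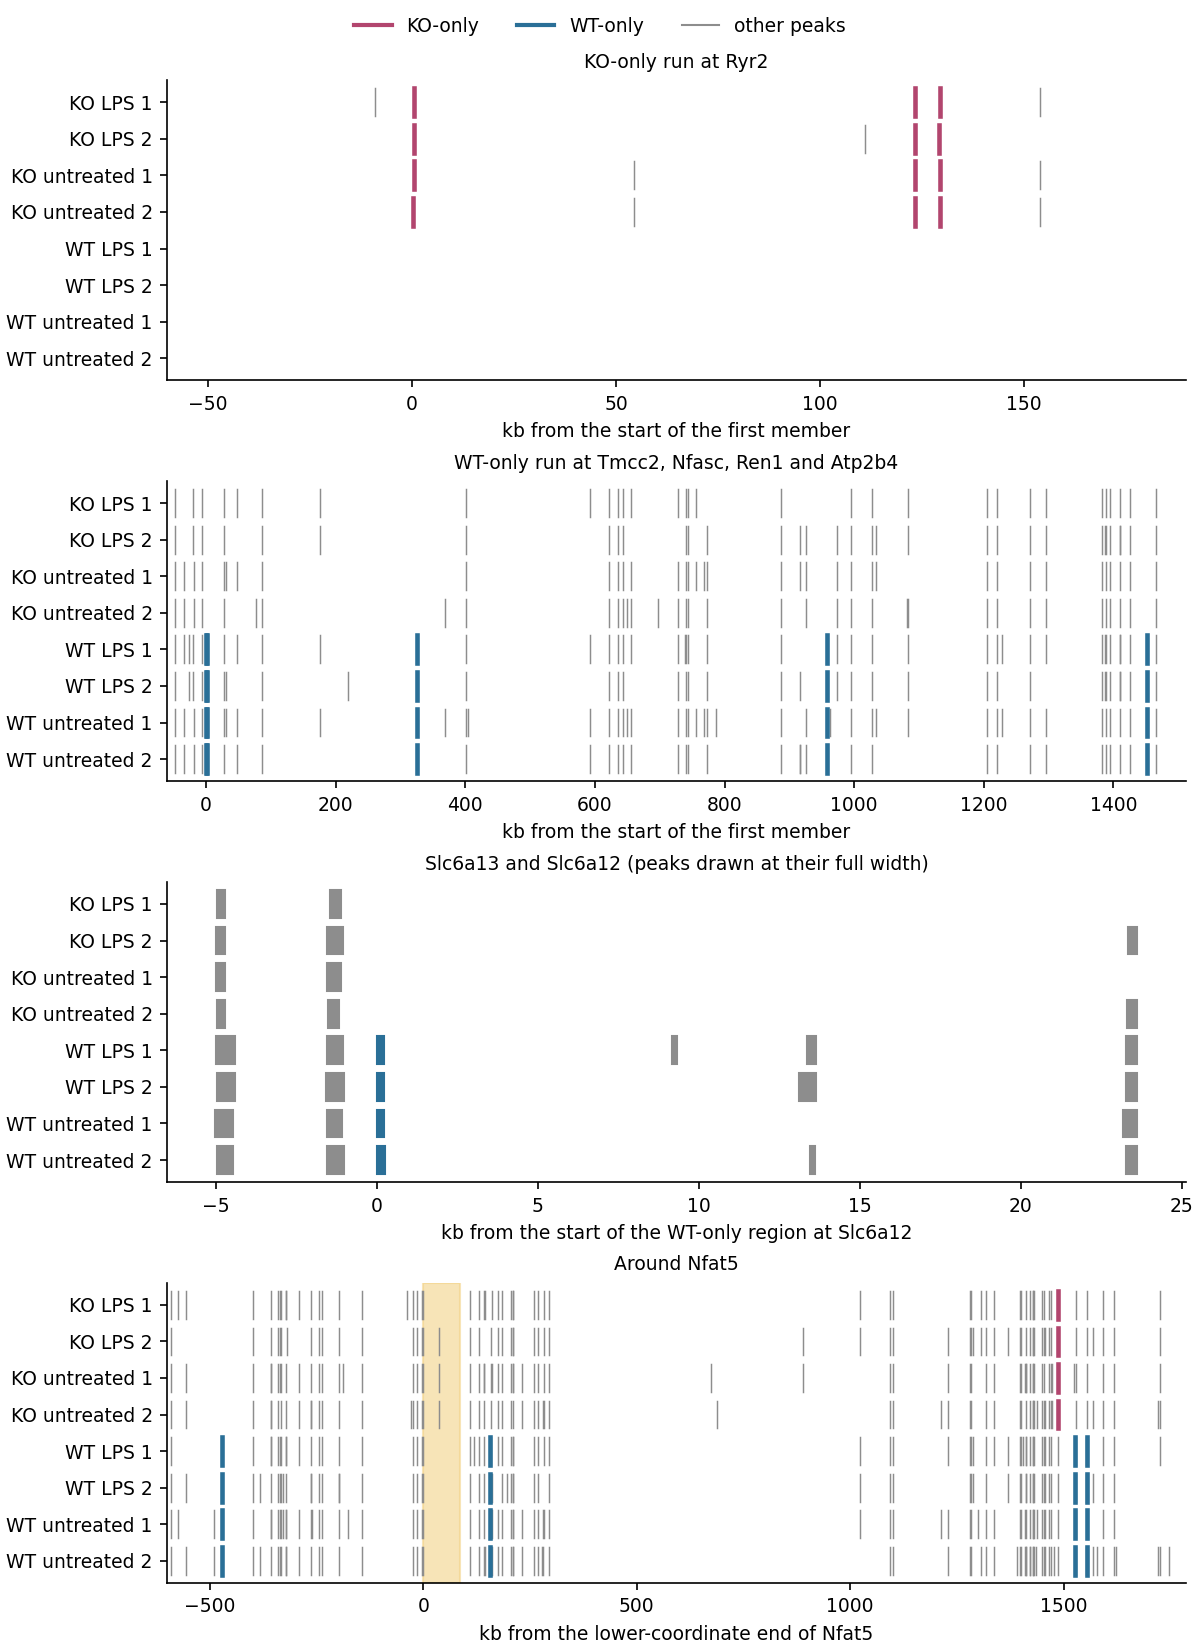
Peaks of each library, 1 row per library, at the KO-only run at Ryr2, the WT-only run at Tmcc2, Nfasc, Ren1 and Atp2b4, the Slc6a13 and Slc6a12 locus with peaks at full width, and around Nfat5 (shaded), by distance in kb. No WT library has a peak in the Ryr2 window, the Slc6a12 region is present in the 4 WT rows and absent from the 4 KO rows, and the Nfat5 body holds no member.

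Clustering of members was above the level of regions at large for KO-only and less so for WT-only regions. Another KO-only region lay within 1 Mb of 39 KO-only regions (30.5%), while 8.98% of all regions had a KO-only region that near. Another WT-only region lay within 1 Mb of 48 WT-only regions (23.8%), while 18.8% of all regions had one. Within 100 kb the shares were 10.2% (13 regions) for KO-only, against 1.19% of all regions, and 3.96% (8) for WT-only, against 2.96%. A member of the opposite direction lay within 1 Mb of 16 KO-only (12.5%) and 19 WT-only regions (9.41%). The nearest such pairs were at Zfhx3, at 40.4 and 68.3 kb, at Clmp, an adhesion molecule gene, at 91.9 kb, and between Pigf, which takes part in making GPI anchors, and Epas1, which encodes the hypoxia factor HIF-2 alpha, at 191 kb.

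KO-only regions also lay in sparser surroundings. Their median number of other regions within 1 Mb was 71.5, against 93 for WT-only regions and 91 for all regions. Regions called in all 8 libraries numbered 30.5 within 1 Mb of KO-only regions, 40 for WT-only and 39 for all regions at the median, and 5 KO-only and 0 WT-only regions had none that near. The nearest region called in all 8 libraries was 28.0 kb away from KO-only, 12.2 kb from WT-only and 12.3 kb from all regions at the median. Among regions that were not members, the balance of calls within 100 kb shifted towards the direction of the member, given here with no test. Of 1022 such regions within 100 kb of a KO-only region, 29.1% were called by more KO libraries and 21.7% by more WT libraries. Of 2572 near a WT-only region, 16.1% were called by more KO and 29.5% by more WT libraries, and over all 86930 non-members the shares were 21.5% and 26.6%. Within 1 Mb the shares were 25.3% and 23.8% near KO-only regions, and 18.5% and 27.9% near WT-only regions. The remaining regions were called by equal numbers of KO and WT libraries.

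Among the 15 KO-only regions whose peaks ranked widest within their lists, 3 were inside potassium channel genes and 2 inside Ryr2. Kcnab1, which encodes a beta subunit of voltage-gated potassium channels, had a region at chromosome 3, 65195426 to 65197378, with peak widths of 1076 and 611 bases with LPS and 1076 and 1360 bases untreated in KO cells. Kcnh8, a voltage-gated channel gene, had 994 and 495 bases with LPS and 774 and 601 bases untreated, and Kcnk12, of the leak channel family, had 301 and 634 bases with LPS and 630 and 583 bases untreated. The KO-only region farthest from any gene, at 1319.38 kb, was also among the widest. It lay at chromosome 1, 141933426 to 141934222, and its peaks were 574 and 513 bases with LPS and 660 and 561 bases untreated in KO cells. A region of chromosome 19 (61151510 to 61152492), 10.7 kb outside the zinc finger gene Zfp950, was wide in all 4 libraries, with 949 and 964 bases with LPS and 915 and 840 bases untreated in KO cells. Among the rest of these 15, regions at chromosome 4, 80643751 to 80644594, chromosome 5, 12160622 to 12161489, and chromosome 15, 97533704 to 97534612, had no gene within 100 kb, and the others were at or near Olfr1223, Olfr1214, Cdh10, Pigf and Rara. Rara encodes the retinoic acid receptor alpha, and the region, at chromosome 11, 98943495 to 98944194, was called with widths of 505 and 686 bases with LPS and 442 and 405 bases untreated in KO cells.

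Among the 15 widest WT-only regions, those at Rbpms, Ptpn13 and Ppef2 were still WT-only under each alternative tried for calling and for list length. Rbpms, an RNA-binding protein gene, had a region at chromosome 8, 33895934 to 33897013, with peaks of 560 and 964 bases with LPS and 683 and 737 bases untreated in WT cells. Ptpn13, a tyrosine phosphatase gene, had one at chromosome 5, 103518753 to 103519449, with even widths of 582 and 652 bases with LPS and 575 and 600 bases untreated. C1qb, a chain of complement C1q, had a region just outside it at chromosome 4, 136878227 to 136878990, with 504 and 624 bases with LPS and 310 and 609 bases untreated in WT cells. Wdfy4, needed for cross-presentation in dendritic cells, had 637 and 579 bases with LPS and 450 and 578 bases untreated. The region 26.1 kb from Cd9, a tetraspanin gene, had 489 and 483 bases with LPS and 473 and 524 bases untreated. Vcan, which encodes the matrix proteoglycan versican, had a region 23.0 kb outside it with 300 and 759 bases with LPS and 688 and 731 bases untreated, and so 1 narrow peak among 4. The rest of these 15 were at or near Riiad1, Zfp781, Wwp2, Dlg2, Mapk6, Ranbp17, Ppef2 and Cyb5a, and at X chromosome positions 121367028 to 121368034, where no gene lay within 100 kb.

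Few members lay at the ends of genes. The 7 KO-only regions within 1 kb of a gene end were at Rbm39 (a splicing factor), Adamtsl4 (a matrix protein), Ssu72 (a phosphatase of RNA polymerase II), Alx1 (a homeobox factor of the developing face), Lst1 (a leukocyte transcript of the MHC locus), Kcnk12 and Slc15a3 (a lysosomal peptide and histidine transporter). The Adamtsl4 region, at chromosome 3, 95687842 to 95688324, covered its whole promoter window and had peaks of 291 and 432 bases with LPS and 319 and 286 bases untreated in KO cells. Lst1 and Slc15a3 had narrower peaks, with 215 and 192 bases with LPS and 264 and 199 bases untreated at Lst1, and 189 and 289 bases with LPS and 209 and 251 bases untreated at Slc15a3.

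The 21 WT-only regions near a gene end were at Slc6a12, Ass1, Tmcc2, Ctdsp1, Sowahb, Srrd, Bicdl1, Baiap2l1, Gsx1, Jazf1, Zfp9, Clec1a, Cadm1, C2cd4c, Zfp781, Ranbp17, Il17d, Gfra2, Ccdc65, Pfdn1 and Mfsd13a. Ass1, argininosuccinate synthase, which rebuilds arginine from citrulline, had a region over its promoter at chromosome 2, 31469948 to 31470699. Its peaks were 322 and 304 bases wide with LPS and 659 and 335 bases untreated in WT cells, with 1 untreated library wider than the other 3. Il17d, a cytokine gene, had 307 and 272 bases with LPS and 349 and 317 bases untreated. Clec1a, a C-type lectin receptor gene, had 412 and 189 bases with LPS and 494 and 275 bases untreated.

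Annotated promoter windows, which were used for all chromosomes but 18, were under 1 of 123 KO-only regions and 13 of 196 WT-only regions (6.63%), beside 10.8% of all regions and 2.49% of the others called in exactly 4 libraries. The WT-only ones held 15 windows of Ass1, Baiap2l1, C2cd4c, Ccdc65, Hps4, Mfsd13a, Ranbp17, Slc6a12, Sowahb, Speg, Tmcc2 and Zfp781. TGGAAA, searched on both strands, was present in 0 of 1 window under a KO-only region, in 2 of these 15 windows, those of Ccdc65 and of 1 Tmcc2 start, and in 21.4% of all 32851 windows. At both Ccdc65 and Tmcc2 the core lay outside the bases of the WT-only region. The AP-1 site TGANTCA was in 0 of 1 KO-only window and 0 of 15 WT-only windows, against 7.81% of all windows. The PU.1 core GAGGAAG, which shares the letters GGAA with TGGAAA, was in 0 of 1 and 1 of 15, against 13.6%, and the NF-kB motif GGGANTT was in 1 of 1 and 0 of 15, against 16.5%. The windows cover 300 bases at a start and not the peaks elsewhere, so the letters under most members were not examined. Ccdc65, a gene for ciliary motility, had its region at chromosome 15, 98708089 to 98708391, with peaks of 266 and 167 bases with LPS and 275 and 239 bases untreated in WT cells.

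**Figure D5:**
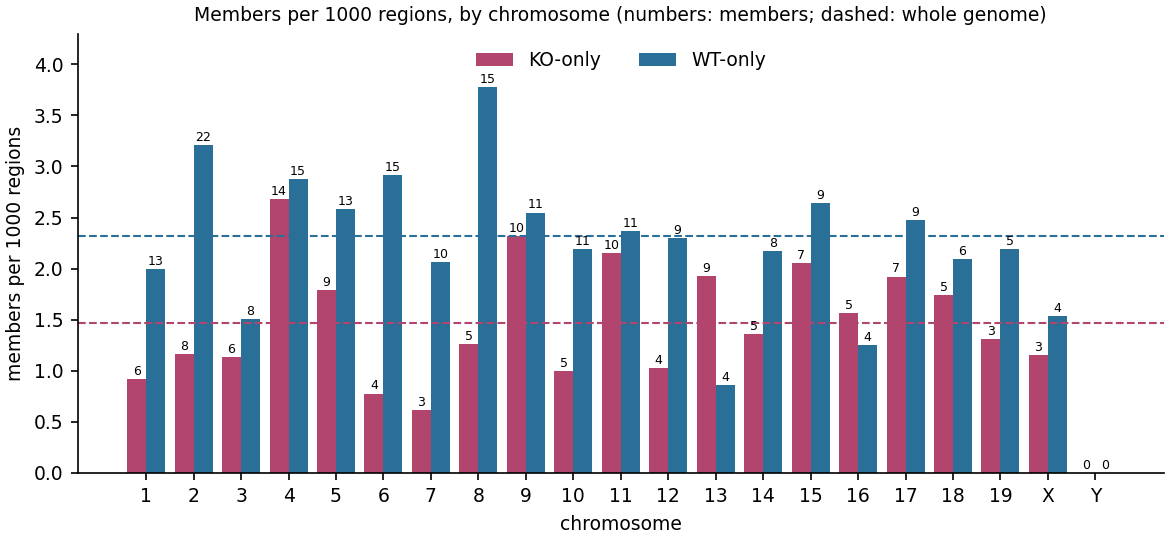
Members per 1000 regions on each chromosome, with the number of members above each bar and the genome-wide level dashed, for KO-only and WT-only regions. Chromosome 8 has the highest WT-only bar, 3.78 per 1000 (15 regions), and chromosome 4 the highest KO-only bar, 2.68 per 1000 (14 regions).

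Members were spread over all chromosomes but Y, where 109 regions held none. Per 1000 regions, KO-only members were most frequent on chromosome 4 (14 regions, 2.68) and least on chromosome 7 (3 regions, 0.619). WT-only members were most frequent on chromosome 8 (15 regions, 3.78), the chromosome of Nfat5, followed by chromosome 2 (22 regions, 3.21), and least on chromosome 13 (4 regions, 0.857).

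Around Nfat5, WT-only regions were a larger share of all regions than on the rest of its chromosome. Nfat5 itself, at chromosome 8, 107293435 to 107379517, had 7 regions, of which 4 were called in all 8 libraries and none was a member. The removed part of the gene is not known here, so these calls do not check the knockout. Within 10 Mb of it lay 1 KO-only and 6 WT-only regions among 571, or 1.75 and 10.5 per 1000. Of the 6 WT-only regions, the 3 at Cdh5, Wwp2 and Phlpp2 were still WT-only both at 50% coverage and with equal list lengths. The rest of chromosome 8 had 4 KO-only and 9 WT-only regions among 3399, or 1.18 and 2.65 per 1000, and the other chromosomes had 1.48 and 2.25 per 1000. The 7 regions lay between 3.18 Mb before and 2.62 Mb after the start of Nfat5. The nearest, inside the ubiquitin ligase gene Wwp2 at 107449294 to 107449951, measured 377 and 520 bases with LPS and 620 and 632 bases untreated in WT cells.

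On the other side, regions inside Tango6 (106820506 to 106821172) and Cdh5, which encodes VE-cadherin, were WT-only. The Tango6 region had peaks of 479 and 317 bases with LPS and 427 and 517 bases untreated in WT cells, and the Cdh5 region 363 and 362 bases with LPS and 254 and 296 bases untreated. Inside Zfhx3, a homeobox transcription factor gene, 1 KO-only region at 108780265 to 108780554 preceded 2 WT-only regions, at 108820647 to 108820908 and 108848498 to 108848866. Its peaks were 206 and 172 bases wide with LPS and 290 and 272 bases untreated in KO cells. The WT-only regions had 156 and 215 bases with LPS and 262 and 236 bases untreated, and 369 and 286 bases with LPS and 188 and 236 bases untreated, in WT cells. Of the 45 other Zfhx3 regions, 6 were called by more KO and 14 by more WT libraries. Phlpp2, a phosphatase gene, had the last of the 7, with 283 and 365 bases with LPS and 273 and 268 bases untreated in WT cells.

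The counts depended on how many peaks each list held. With every list cut by width to the 54027 peaks of the shortest, 178 regions were KO-only and 145 WT-only, so the direction with more members turned round. Of the regions described here, 98 KO-only (76.6%) and 113 WT-only (55.9%) were still members then. When a call needed a peak over at least 50% of the region, 69 (53.9%) and 127 (62.9%) were still members, and 51 KO-only and 75 WT-only regions held under both. Of the regions given above with their widths, those at Kcnab1, Kcnh8 and Kcnk12, the narrower Ryr2 region, the Thg1l region and the Sgcd region at 47171050 were no longer KO-only at 50% coverage, and those at Ass1, C1qb, Vcan, Clec1a, Tango6 and the Tmcc2 region at 132391525 were no longer WT-only. Equal list lengths removed the regions at Thg1l, Lst1, Slc6a12 and Gata2 and both WT-only Zfhx3 regions. In the WT-only runs, only the Tmcc2 region at 132390379 held under both settings. Of the members at Sgcd, Lingo2, Cdh10 and the chromosome 5 run, only those at 47025152, 36038687, 19042701 and 12160622 did. At Ryr2 and in the odorant receptor run, all but the narrower Ryr2 region held under both. With only the 27013 widest peaks of each list, 10 KO-only and 3 WT-only regions were still members, among them 2 of the Ryr2 regions and those near Zfp950, Olfr1214, Olfr1223, Rbpms, Ptpn13 and Ppef2.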

How the data were processed

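The 8 ATAC-seq libraries came from mouse bone marrow-derived macrophages. The authors deposited 1 peak list per library with chromosome, start, end and a peak name on build GRCm38, without scores or counts. The submitters' processing notes name MACS2 2.1.1, Bowtie2 2.3.0 and Picard. The calling threshold, duplicate handling and cut-site shift were not stated, and they decide which weak peaks enter a list. Other values in the text were computed from the deposited positions.

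Peaks of the 21 main chromosomes were merged where they overlapped by at least 1 base, and a library called a region when its peak overlapped it by at least 1 base. Starts are counted from 1, taking the lists' starts to count from 0. Each region took the nearest gene within 100 kb, measured to the gene body, from 21887 protein-coding entries of the RefSeq GRCm38.p6 table. Promoter windows of the matching sequence table covered 17492 of these genes (79.9%) and 217 of the 275 genes assigned to members. The members, gene lists and tests were chosen with earlier results of these data known. Named genes were the 15 members of each direction with the widest peaks by rank within their lists, members at listed genes, within 1 kb of a gene end, within 10 Mb of Nfat5 or in runs, and genes with several members; regions with no gene within 100 kb were named by position. LPS was compared with no treatment by an exact permutation test of library medians (scipy 1.17.1). Values of 1 gene in a run and of 1 marker are not reported here. Merging and calling were tested on simulated lists. Python 3.11.15, numpy 2.4.6 and pandas 2.3.3 were used.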

Additional observations from a re-analysis of the deposited data

How the results depend on the processing

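Merging peaks across gaps of up to 100 bases gave the same regions. Requiring at least 50% coverage moved the median region width to 483 bases for KO-only and 478 bases for WT-only regions, and equal list lengths moved it to 447 bases for WT-only regions. The widest 27013 peaks of each list gave 97 KO-only and 95 WT-only regions, with a median width of 669 and 709 bases. Of these, 14.4% and 15.8% had another such region within 1 Mb, and of the WT-only ones 32.6% lay within 1 kb of a gene end and 2.11% on chromosome 8. Calls in at least 3 of 4 libraries gave 487 KO-only and 831 WT-only regions, with median widths of 363 and 352 bases. A neighbour within 1 Mb was present for 40.9% and 63.1%. With more members such shares rise, and the share over all regions is not given for this setting. They therefore do not compare the clustering of the directions. Within 2.5 kb of a gene end lay 14.1% of KO-only and 17.3% of WT-only regions, and a neighbour within 100 kb was present for 10.2% and 3.96%. The cause of these shifts was not tested, except that fewer peaks or fewer required calls change the number of regions by construction.

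Leaving out 1 library at a time, which lowers the number of calls required or of lists searched, gave 156 to 274 KO-only and 281 to 387 WT-only regions. The median region width was then 367.5 to 430 bases for KO-only and 353 to 420 bases for WT-only regions, the share near a gene end 4.22% to 6.67% and 8.94% to 14.5%, the share with a neighbour within 1 Mb 27.2% to 36.3% and 28.1% to 39.1%, and the share on chromosome 8 2.72% to 6.20% and 5.61% to 7.39%. The neighbour shares again have no share over all regions beside them. The difference in peak width between LPS and untreated libraries kept its sign at 50% coverage, where it was -28.5 bases for KO-only (exact permutation p = 0.333) but shrank to -3 bases for WT-only regions (exact permutation p = 0.667). With the replicate block, an alternative chosen after seeing the data in which libraries of a number form a pair, the differences of -17 and -43 bases in KO cells and -10.5 and -37 bases in WT cells averaged -30 and -23.75 bases, with an exact permutation p of 0.5 each, the smallest that 2 pairs can give. No paired analysis was possible for the counts of regions, which come from no test. Depth is unknown, and no score shows how far a peak lay above the authors' calling threshold.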

Other observations

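Genes of potassium channels, whose symbols begin with Kcn, were noticed among the KO-only regions after the values had been seen, so their count is given with no test. The 94 protein-coding genes with such symbols had 370 regions, 0.471% of all regions assigned to a gene. KO-only regions were assigned to 5 of them, Kcnab1, Kcnh8, Kcnk12, Kcnq3 and Kcnq5, which is 5.15% of the assigned KO-only regions, and 0 WT-only regions were. When a call needed a peak over at least 50% of the region, 4 of these 5 were no longer KO-only, and the one at Kcnq5 still was. Kcnq3 and Kcnq5 encode channels of the neuronal M current.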
